A study of Mus musculus with 12 samples.

Results

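Expression of protein-coding genes was compared between wild-type TH17 cells sorted as CXCR6+ and wild-type TH17 cells sorted as SLAMF6+ from the central nervous system. The members are the 10 libraries whose column names carry WT together with CXCR6 (5 libraries) or SLAMF6 (5 libraries), out of 12 libraries in the series. The genes described are the protein-coding genes outside the mitochondrially encoded genes and the cytosolic ribosomal protein genes, 19711 of the 47359 gene rows. Of these, 10552 passed the filter on low counts and were tested.

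All cells came from 2D2 donors, whose transgenic T cell receptor recognises a peptide of myelin oligodendrocyte glycoprotein, and all had been transferred into RAG2-/- hosts, which lack T and B cells of their own. They were taken at the peak of experimental autoimmune encephalomyelitis, which models multiple sclerosis in mice. In the 2D2-WT groups Il17a and Il17f were intact, and in the other 2 libraries (2D2-IL-17A/F-DKO, 1 CXCR6+ and 1 SLAMF6+) both cytokine genes were deleted. Each library was made from 1000 living sorted cells with a modified SMART-Seq2 protocol, which covers full-length transcripts and does not keep the strand. The labels number the libraries of a WT group 1 to 5 without saying whether a number is a separate host, so a p-value measures only the spread between these libraries, which may be technical.

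TH17 cells are CD4+ helper T cells that make IL-17A and IL-17F and drive inflammation of the central nervous system in this model. CXCR6, a chemokine receptor, marks T cells with effector function in inflamed tissue. SLAMF6, a homotypic receptor of the SLAM family, is used together with the transcription factor TCF1 (gene Tcf7) to mark T cells with stem-like properties that renew the effector pool.

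The gene counts summed to between 6818658 and 8710148 per CXCR6+ library and to between 8134987 and 11635037 per SLAMF6+ library. Values below are CPM, a gene's counts scaled to a common library total and for library composition, and a difference is given as log2 of CXCR6+ over SLAMF6+ with its standard error (SE). The libraries separated by subset: the Spearman correlation of expression was 0.964 to 0.976 within CXCR6+, 0.980 to 0.988 within SLAMF6+ and 0.914 to 0.937 between them. Gene classes outside the protein-coding genes described here also moved with the subset. Mitochondrially encoded genes took 12.9% to 17.6% of the counts in CXCR6+ and 2.2% to 5.24% in SLAMF6+ libraries, ribosomal protein genes took 9.48% to 10.8% and 19% to 20.2%, and the nuclear RNA Malat1 took 0.888% to 1.18% and 0.187% to 0.257%. The small mitochondrial transcript mt-Ts1 was at 0 in 5 libraries (CXCR6+ replicate 1 and SLAMF6+ replicates 1, 3, 4 and 5) and held 111496 to 357922 counts in the other 5. Because whole transcript classes differ and the libraries are bulk samples of cells, fewer cells of a kind and less RNA per cell cannot be told apart in any of the values below.

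CXCR6+ and SLAMF6+ cells differed at more than a single programme. At an adjusted p under 0.05 (edgeR's quasi-likelihood test, Benjamini-Hochberg over all 13508 genes tested, of which 54.5% were called), 5808 of the 10552 protein-coding genes were called, which is 55.0%. Of these, 2915 (27.6%) were higher and 2893 (27.4%) were lower in CXCR6+ cells. The larger changes leaned to one side. A difference of at least 2-fold was called for 1329 genes (12.6%), of which 1013 (9.60%) were higher and 316 (2.99%) were lower in CXCR6+ cells. The 5 CXCR6+ libraries did not overlap the 5 SLAMF6+ libraries at 4415 genes (41.8%), with CXCR6+ above at 2187 (20.7%) and below at 2228 (21.1%). A count of calls in any gene group below has to be read against these shares. The split was less even in other fits, at 2185 higher to 3296 lower with all 12 libraries in 1 fit, 1911 to 2820 with no filter on low counts and 2447 to 3193 with DESeq2.

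The direction of change followed the length and the level of the transcript. In the fifth of genes with the shortest transcripts (up to 1969 nt) the median difference was -0.40, and it was -0.13, -0.00, 0.15 and 0.47 in the following bins of equal size, the last of which starts at 5151 nt. By level, the median went from 0.30 in the fifth of genes with the lowest mean CPM to -0.39 in the fifth with the highest. Genes called at least 2-fold higher in CXCR6+ cells had a median transcript length of 4459 nt and a median level of 9.84 CPM, against 2062 nt and 34.6 CPM for genes at least 2-fold lower. Across the 10361 genes with a known length, the Spearman correlation of the difference was 0.387 with length, -0.308 with level and 0.126 with GC content, given as descriptions since genes of the same libraries are not independent. A second fit used offsets that take out trends with GC content and transcript length, estimated from these same libraries. Subset differences that run with length or GC content are taken out as well, so the fit cannot tell them apart from an effect of length. Its length bins had medians between -0.07 and 0.07, which follows from how the offsets were made. It called 5021 genes (47.6%), 2608 higher and 2413 lower. It called 4137 (71.2%) of the first fit's calls again, and 395 of the first fit's called genes had the opposite sign in it. Its value is given for many, but not all, of the calls named below that it ends or turns. A call printed without an offset value need not have been kept in it.

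**Figure D1:**
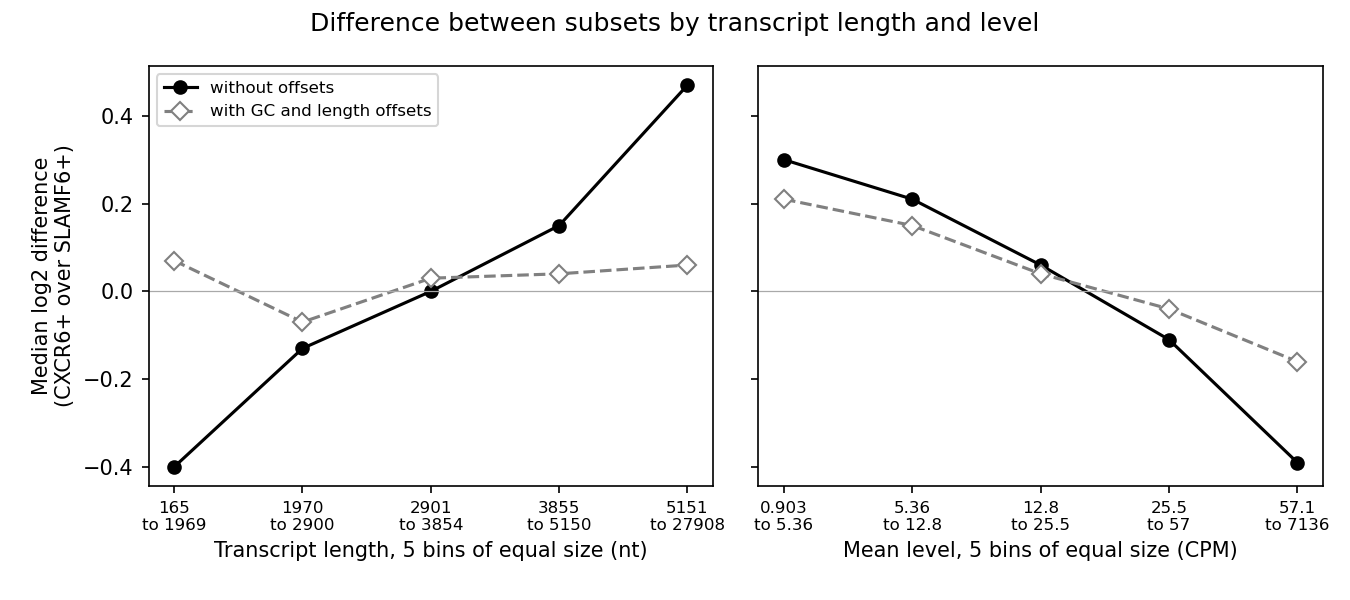
Median log2 difference (CXCR6+ over SLAMF6+) of protein-coding genes in 5 bins of equal size by transcript length (left) and by mean CPM (right), in the fits without and with GC and length offsets. Without offsets the medians run from -0.40 to 0.47 with rising length and from 0.30 to -0.39 with rising level. With offsets, which were estimated from the same libraries to take out the length trend, the length medians lie between -0.07 and 0.07. The level medians with offsets run from 0.21 to -0.16.

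The sorted cells carried T cell genes throughout. All 10 T cell identity genes were tested, and their summed level was 24225 to 35488 CPM in CXCR6+ and 32804 to 38131 CPM in SLAMF6+ libraries. Cd4, the co-receptor of helper T cells, did not pass the test at a difference of -0.08 (SE 0.12), while the receptor chain genes Cd3g (-0.89, SE 0.09) and Cd3e (-0.42, SE 0.07) were lower in CXCR6+ cells. Cd8a and Foxp3, which mark cytotoxic and regulatory T cells, had means below 1 CPM in both subsets.

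The 2 genes that name the sort behaved differently. Slamf6 stood at 1.81, 4.66, 3.75, 2.09 and 5.41 CPM in CXCR6+ replicates 1 to 5 and at 6.93, 5.92, 7.35, 10.3 and 10.6 CPM in SLAMF6+ replicates 1 to 5. The groups did not overlap, and the difference was -1.22 (SE 0.31, adjusted p 0.00564). Cxcr6 stood at 45.2, 45.6, 4.76, 20.8 and 24.2 CPM in CXCR6+ replicates 1 to 5 and at 18.7, 15.8, 17.2, 16.2 and 11 CPM in SLAMF6+ replicates. Its difference of 0.83 (SE 0.43) missed the threshold with an adjusted p of 0.125. CXCR6+ replicate 3 was the lowest of all 10 libraries for Cxcr6, and without it the adjusted p was 0.00385; that library is labelled CXCR6+ and was kept.

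The IL-17 cytokine genes did not pass the test between the subsets. Il17a was at 383, 462, 328, 465 and 205 CPM in CXCR6+ and at 333, 229, 453, 345 and 298 CPM in SLAMF6+ replicates 1 to 5, so the groups overlapped, with a difference of 0.15 (SE 0.22, adjusted p 0.577). With the length offsets the same gene was called at 1.00 (adjusted p 0.00356). Il17f was at 62.6, 29.8, 73.1, 18.2 and 45.2 CPM against 62.3, 61.9, 74.3, 77.8 and 139.8 CPM, a difference of -0.87 (SE 0.35) outside the threshold (adjusted p 0.0515), and with offsets it was -0.03 (adjusted p 0.948). Il23r, the receptor chain for the cytokine that sustains TH17 cells, differed by 0.17 (SE 0.09, adjusted p 0.146), and with offsets by 0.37 (adjusted p 0.00796). Of the 16 TH17 programme genes tested, 1 was higher and 4 were lower in CXCR6+ cells, beside 27.6% and 27.4% of all genes. With offsets 4 were higher and 4 lower.

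Genes of lymphoid homing split between a higher integrin and a lower node-homing receptor. Itgb7, the integrin chain that pairs with alpha 4 or alpha E for tissue entry and retention (chr15:102215995-102231944, mm10), stood at 119, 97, 104, 122 and 113 CPM in CXCR6+ replicates 1 to 5. In SLAMF6+ replicates it stood at 52, 38.1, 42.9, 38.6 and 52.1 CPM, less than any CXCR6+ value, and the difference was 1.31 (SE 0.11, adjusted p 1.94e-06). Ccr7, the receptor that guides T cells into lymph nodes (chr11:99144196-99155077), went the other way. Its levels were 323, 429.7, 319, 489 and 320.1 CPM in CXCR6+ and 708, 791, 716, 713 and 796 CPM in SLAMF6+ replicates, a difference of -0.99 (SE 0.12, adjusted p 3.53e-05). S1pr1, the egress receptor, did not pass the test (-0.15, adjusted p 0.207). In all, 3 of 12 homing and egress genes tested were higher and 4 were lower, beside 27.6% and 27.4% of all genes. These counts are near those shares and are not read as a result about the list.

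Stem-like factors were lower in CXCR6+ cells for some members and higher for others. Lef1, the partner of TCF1, was at 74.3, 63.5, 67.4, 65.9 and 63 CPM in CXCR6+ and at 112, 135, 93.4, 100.4 and 123 CPM in SLAMF6+ replicates, a difference of -0.76 (SE 0.10, adjusted p 6.88e-05). Tcf7 itself was at 40.1, 37.1, 27.3, 43.9 and 37.9 CPM against 50.8, 50.1, 52, 55.6 and 59.1 CPM, a difference of -0.52 (SE 0.12, adjusted p 0.00234). Both genes showed no overlap between subsets, and so did Ets1, a factor needed for naive T cell identity (-0.76, SE 0.09, adjusted p 2.95e-05). The opposite direction was found for Foxo1, the factor that drives Ccr7 in resting T cells (1.05, SE 0.14, adjusted p 5.54e-05), and for Bach2, a repressor of effector genes (0.67, SE 0.07, adjusted p 8.14e-06). With the length offsets Foxo1 kept its call at 0.51 (adjusted p 0.0119) and Bach2 lost it at 0.13 (adjusted p 0.146). Across the 16 stem or memory-like genes tested, 4 were higher and 4 were lower, beside 27.6% and 27.4% of all genes. Movement in both directions near those shares is not read as a result about the list. The median of 0.23 turned to -0.04 with offsets and to -0.07 within the libraries with mt-Ts1 counts.

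TH1 and cytokine receptor genes moved in both directions. Il12rb2, the inducible chain of the IL-12 receptor, was at 169, 173, 200.1, 204 and 186 CPM in CXCR6+ and at 338, 310.2, 296, 330.2 and 341 CPM in SLAMF6+ replicates (difference -0.79, SE 0.07, adjusted p 3.23e-06). Its exons share 40% of their bases with Serbp1 on the opposite strand, and reads from the 2 genes cannot be told apart without strand. Serbp1, an RNA-binding protein gene, was at -0.33 (SE 0.08, adjusted p 0.00459). Il12rb1, the chain shared by the IL-12 and IL-23 receptors, was at 222, 207, 215, 248 and 181 CPM against 154, 130.4, 149, 133 and 138 CPM (0.61, SE 0.09, adjusted p 9.47e-05). The 2 chains of the same receptor thus moved apart without overlap between the subsets. Among the IL-2 receptor chains, Il2rb was lower (-0.77, SE 0.05, adjusted p 5.25e-07) and Il2ra was higher (0.37, SE 0.05, adjusted p 0.000123) in CXCR6+ cells. Jak2, a kinase of the IL-12 and interferon-gamma receptors, was higher (1.08, SE 0.08, adjusted p 8.14e-07).

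Effector cytokines did not follow 1 direction either. Tnf was at 142, 175, 99.4, 135 and 87.2 CPM in CXCR6+ and at 92.8, 65.3, 59, 82 and 92.2 CPM in SLAMF6+ replicates, a difference of 0.71 (SE 0.19, adjusted p 0.00794). CXCR6+ replicate 5 lay within the SLAMF6+ values for Tnf, and leaving out replicate 2 of both subsets ended the call (adjusted p 0.0528). Il13, a cytokine of type 2 responses, was at 81.3, 72.6, 104, 104 and 63.4 CPM against 44.7, 34.1, 45.2, 42.6 and 48.1 CPM (0.99, SE 0.15, adjusted p 0.000151). Its chromosomal neighbour Il4 went the other way, at 22.8, 38.2, 8.38, 10.6 and 23.4 CPM against 54.2, 55.6, 95.4, 89.2 and 46 CPM (-1.72, SE 0.37, adjusted p 0.00201), but its call ended with the length offsets (-0.91, adjusted p 0.0668). Ccl5, a chemokine for effector cells, was lower (-1.50, SE 0.32, adjusted p 0.00175), a call also ended by the offsets (-0.83, adjusted p 0.0562). Ifng and Csf2, the cytokines of encephalitogenic cells, varied widely within each subset and were not called (Ifng -0.68, SE 0.97; Csf2 0.95, SE 0.62). Of the 21 TH1 and encephalitogenic genes tested 3 were higher and 5 lower, beside 27.6% and 27.4% of all genes. The median of -0.07 turned to 0.18 with offsets, when 7 were higher and 5 lower. Of 10 TH2 genes 1 was higher and 3 were lower, beside the same 27.6% and 27.4% of all genes. With offsets 2 were higher and 2 lower, with the median turning from -0.15 to 0.14.

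**Figure D2:**
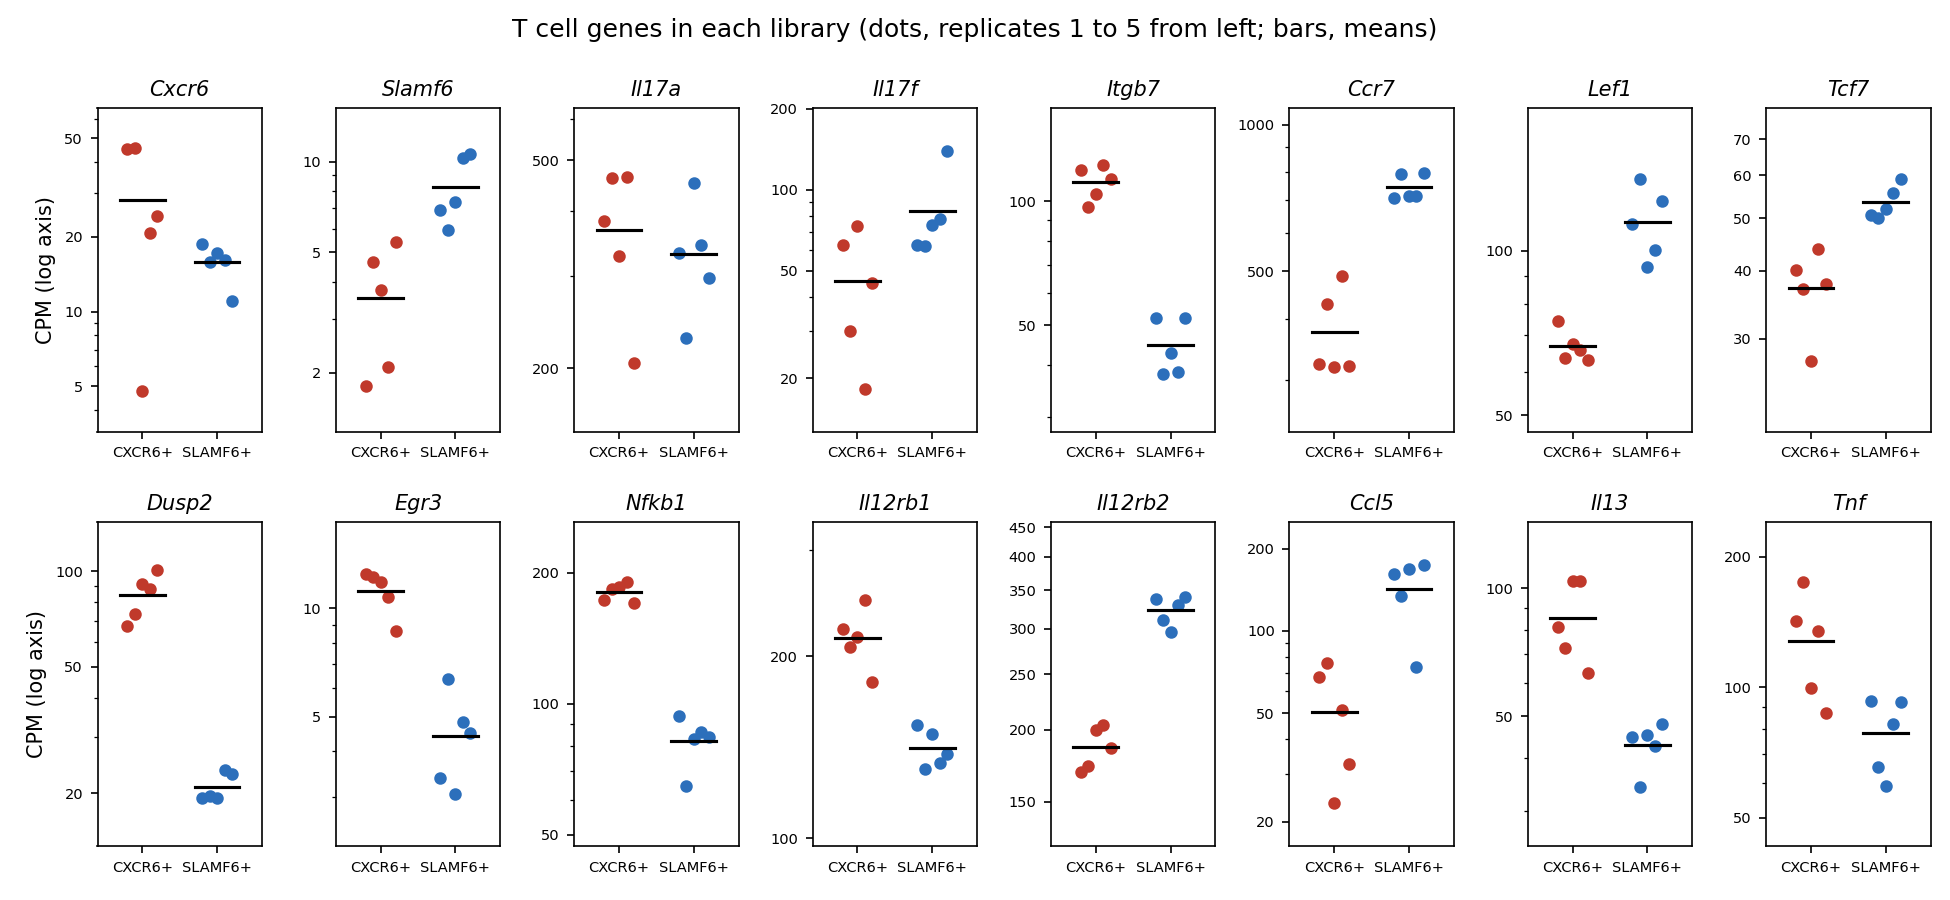
Level of 16 T cell genes in each library (CPM on a log axis), CXCR6+ replicates 1 to 5 beside SLAMF6+ replicates 1 to 5, with a bar at each subset's mean. Itgb7, Dusp2, Nfkb1 and Il13 lie higher in CXCR6+ without overlap, Ccr7, Lef1 and Il12rb2 lie lower without overlap, and Il17a and Il17f overlap.

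Genes induced by the T cell receptor held more members called higher than lower in CXCR6+ cells. Of 32 early response genes tested, 11 were higher and 2 were lower, beside 27.6% and 27.4% of all genes. The median was 0.12, -0.01 in the fit of all 12 libraries and 0.34 with offsets, when 12 members were higher and 5 lower. The members' median deviation from their means, taken per library, overlapped, at 0.02 to 0.20 in CXCR6+ and -0.15 to 0.19 in SLAMF6+ libraries. Dusp2, a phosphatase that switches off MAP kinases in activated lymphocytes (chr2:127336159-127338376), had the clearest separation. It measured 67.3, 73.3, 91, 87.8 and 101 CPM in CXCR6+ and at 19.3, 19.6, 19.4, 23.7 and 23.1 CPM in SLAMF6+ replicates, a difference of 2.00 (SE 0.12, adjusted p 2.82e-07). Dusp5, the phosphatase of nuclear ERK, was higher by 1.28 (SE 0.09, adjusted p 6.01e-07). Egr2 and Egr3, which restrain T cell responses after receptor signals, were higher by 0.58 (SE 0.10, adjusted p 0.000322) and 1.34 (SE 0.21, adjusted p 0.000209). Not every receptor-signal gene took part: Nr4a1 was at -0.00 (SE 0.14, adjusted p 0.98), and Cd69 was at -0.18 (SE 0.22, adjusted p 0.502). Tnfrsf9, the costimulatory receptor 4-1BB, was lower in CXCR6+ cells (-0.64, SE 0.11, adjusted p 0.000462).

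The NF-kB pathway, which connects the receptor to inflammatory transcription, also held more genes higher than lower, 10 against 3 of 20. Of all genes, 27.6% were higher and 27.4% lower. Nfkb1, the p105 and p50 subunit gene, was at 173, 183, 185, 190.1 and 170.4 CPM in CXCR6+ and at 93.5, 64.7, 82.9, 86.1 and 83.9 CPM in SLAMF6+ replicates (1.13, SE 0.09, adjusted p 1.29e-06). Malt1, the protease of the complex that activates NF-kB after receptor signals, was higher by 1.42 (SE 0.09, adjusted p 3.38e-07), and Rel was higher by 0.76 (SE 0.12, adjusted p 0.000181). The inhibitor gene Tnfaip3 was not called (-0.13, SE 0.05, adjusted p 0.0568). The list's median was 0.25, against 0.00 for all protein-coding genes tested, and 0.08 with offsets, when 7 members were higher and 6 lower. Among the 25 receptor complex and proximal kinase genes, 8 were higher and 7 were lower, near the shares of all genes (27.6% and 27.4%). With offsets 5 were higher and 7 lower. The kinase Fyn was higher (1.25, SE 0.13, adjusted p 8.8e-06), while its relative Lck was not called (0.07).

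Inhibitory and costimulatory receptors gave 4 higher and 9 lower of 19, beside 27.6% and 27.4% of all genes. With offsets 7 were higher and 6 lower. The median of 0.09 was above 0 although more members were called lower, and it turned to -0.20 with at least 10 CPM in 5 libraries and to -0.23 without CXCR6+ replicate 2. Cd27 (0.45, SE 0.08), Btla (0.48, SE 0.07) and Ctla4 (0.40, SE 0.11) were higher in CXCR6+ cells, and Cd200 was lower (-0.52, SE 0.06). Pdcd1, which encodes PD-1, was not called (0.40, SE 0.17, adjusted p 0.0644).

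Genes of energy metabolism were lower in CXCR6+ cells, the respiratory chain with the fewest exceptions of the 31 gene lists. Of 49 nuclear genes of the respiratory chain, the machinery that makes ATP in mitochondria, 0 were higher and 48 were lower, with 47 below without overlap and a median of -0.79. Uqcrh, a small subunit of complex III, was among the 5 lower genes with the smallest p of all. It measured 294, 259.8, 267, 249 and 266 CPM in CXCR6+ and at 555, 586, 593, 621 and 624 CPM in SLAMF6+ replicates, a difference of -1.16 (SE 0.06, adjusted p 1.64e-07). The catalytic subunit Sdha, encoded by a longer transcript, was lower by less (-0.51, SE 0.07, adjusted p 6.55e-05). These genes are mostly short. In the fifth of all genes with the shortest transcripts, 10.9% were higher and 48.4% lower, and with offsets 26.6% and 17.8%. With the length offsets the list's median was -0.35 with 3 members higher and 31 lower. Uqcrh kept its call at -0.35 (adjusted p 0.000478), and Ndufa4, a cytochrome c oxidase subunit, lost it (-0.84 without and -0.06 with offsets, adjusted p 0.538). The mitochondrially encoded subunits of the same chain are outside the genes described and took the larger share of counts in CXCR6+ libraries, as given above. Tricarboxylic acid cycle genes gave 1 higher and 14 lower of 20, with a median of -0.50 that was -0.22 with offsets, when 10 were lower.

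Glycolysis and the hypoxia response were lower in CXCR6+ cells too, and the abundant members showed it in every library. Of 21 glycolysis and pentose phosphate genes 2 were higher and 17 were lower (median -0.57, and -0.52 with offsets, when 17 were lower again). Gapdh was at 1219, 1199, 1478, 1058 and 1504 CPM in CXCR6+ and at 3082, 3122, 3171, 2892 and 2919 CPM in SLAMF6+ replicates (-1.23, SE 0.10, adjusted p 1.08e-06). Pgk1 (-0.89, SE 0.06), Tpi1 (-0.93, SE 0.06) and Ldha (-0.74, SE 0.06), which carry glucose carbon to lactate, were lower alongside it. The exceptions were Hk2, the inducible hexokinase at the entry of the pathway (0.56, SE 0.07, adjusted p 2.7e-05), and the glucose transporter Slc2a1 (0.33, SE 0.13, adjusted p 0.0497, a call that 25 of 29 alternative fits ended). Bnip3, a receptor for the removal of mitochondria that responds to low oxygen, was at 101, 114, 132, 121 and 129.6 CPM in CXCR6+ and at 328, 305, 306, 309 and 358 CPM in SLAMF6+ replicates. Its difference was -1.43 (SE 0.08, adjusted p 2.34e-07), and the related Bnip3l was lower by a similar step (-1.22, SE 0.08, adjusted p 3.38e-07). Of the 18 hypoxia response genes tested, 2 were higher and 11 were lower, with a median of -0.70 that was -0.31 with offsets.

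Since members of these lists moved together, the promoter windows of Bnip3 and Uqcrh are shown, the member of each list with the smallest p among those holding the motif searched. The windows run from 250 bases before to 50 after a start in RefSeq (GRCm38.p6), 5′ to 3′ on the gene's strand, and capitals mark matches on either strand. For Bnip3 (chr7:138909457-138909756, minus strand) the motif was the hypoxia element core ACGTG or GCGTG, with 5 matches, of which some overlap. For Uqcrh (chr4:116075021-116075320, minus strand) it was the ETS site CCGGAAG, with 1 match.
Bnip3: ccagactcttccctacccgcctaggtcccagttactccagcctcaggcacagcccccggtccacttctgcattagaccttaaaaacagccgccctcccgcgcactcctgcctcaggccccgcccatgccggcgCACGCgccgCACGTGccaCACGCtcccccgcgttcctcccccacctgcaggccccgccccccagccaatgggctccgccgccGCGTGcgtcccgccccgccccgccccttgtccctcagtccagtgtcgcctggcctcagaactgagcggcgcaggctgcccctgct
Uqcrh: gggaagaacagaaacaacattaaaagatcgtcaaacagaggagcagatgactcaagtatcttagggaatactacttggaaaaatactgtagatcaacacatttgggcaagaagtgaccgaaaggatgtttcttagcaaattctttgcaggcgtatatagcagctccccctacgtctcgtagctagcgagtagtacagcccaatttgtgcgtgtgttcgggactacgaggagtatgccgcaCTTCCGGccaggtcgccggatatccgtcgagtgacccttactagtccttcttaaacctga
The hypoxia core was found in the windows of 16 of 16 hypoxia response genes and 18 of 20 glycolysis genes with a RefSeq window. Of the 8569 protein-coding genes tested that had a window, 68.9% held it. The hypoxia list holds genes picked for a known response to low oxygen, so its share follows in part from that choice and is no result. The ETS site was found in 11 of 39 respiratory chain genes (28.2%) against 22.3%. Chromatin regulators held the hypoxia core in 16 of 30 windows and the ETS site in 5 of 30. The hypoxia core was in 27 of 39 respiratory chain windows (69.2%), 10 of 16 for cholesterol synthesis and 18 of 27 for DNA replication. Of other motifs searched, the NRF1 motif (TGCGCA) was in 11 of 39 respiratory chain windows (28.2%) against 17.1% of all windows. The E2F site (TTTGGCGC or TTTCCCGC) was in 9 of 27 DNA replication and 4 of 30 chromatin regulator windows, against 3.69% of all. The sterol element (TCACNCCAC) was in 1 of 16 cholesterol synthesis, 2 of 20 glycolysis and 1 of 27 DNA replication windows, against 1.35% of all. Whether a motif goes with the direction of change was not tested. A match is a string of letters in a window and shows no binding.

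**Figure D3:**
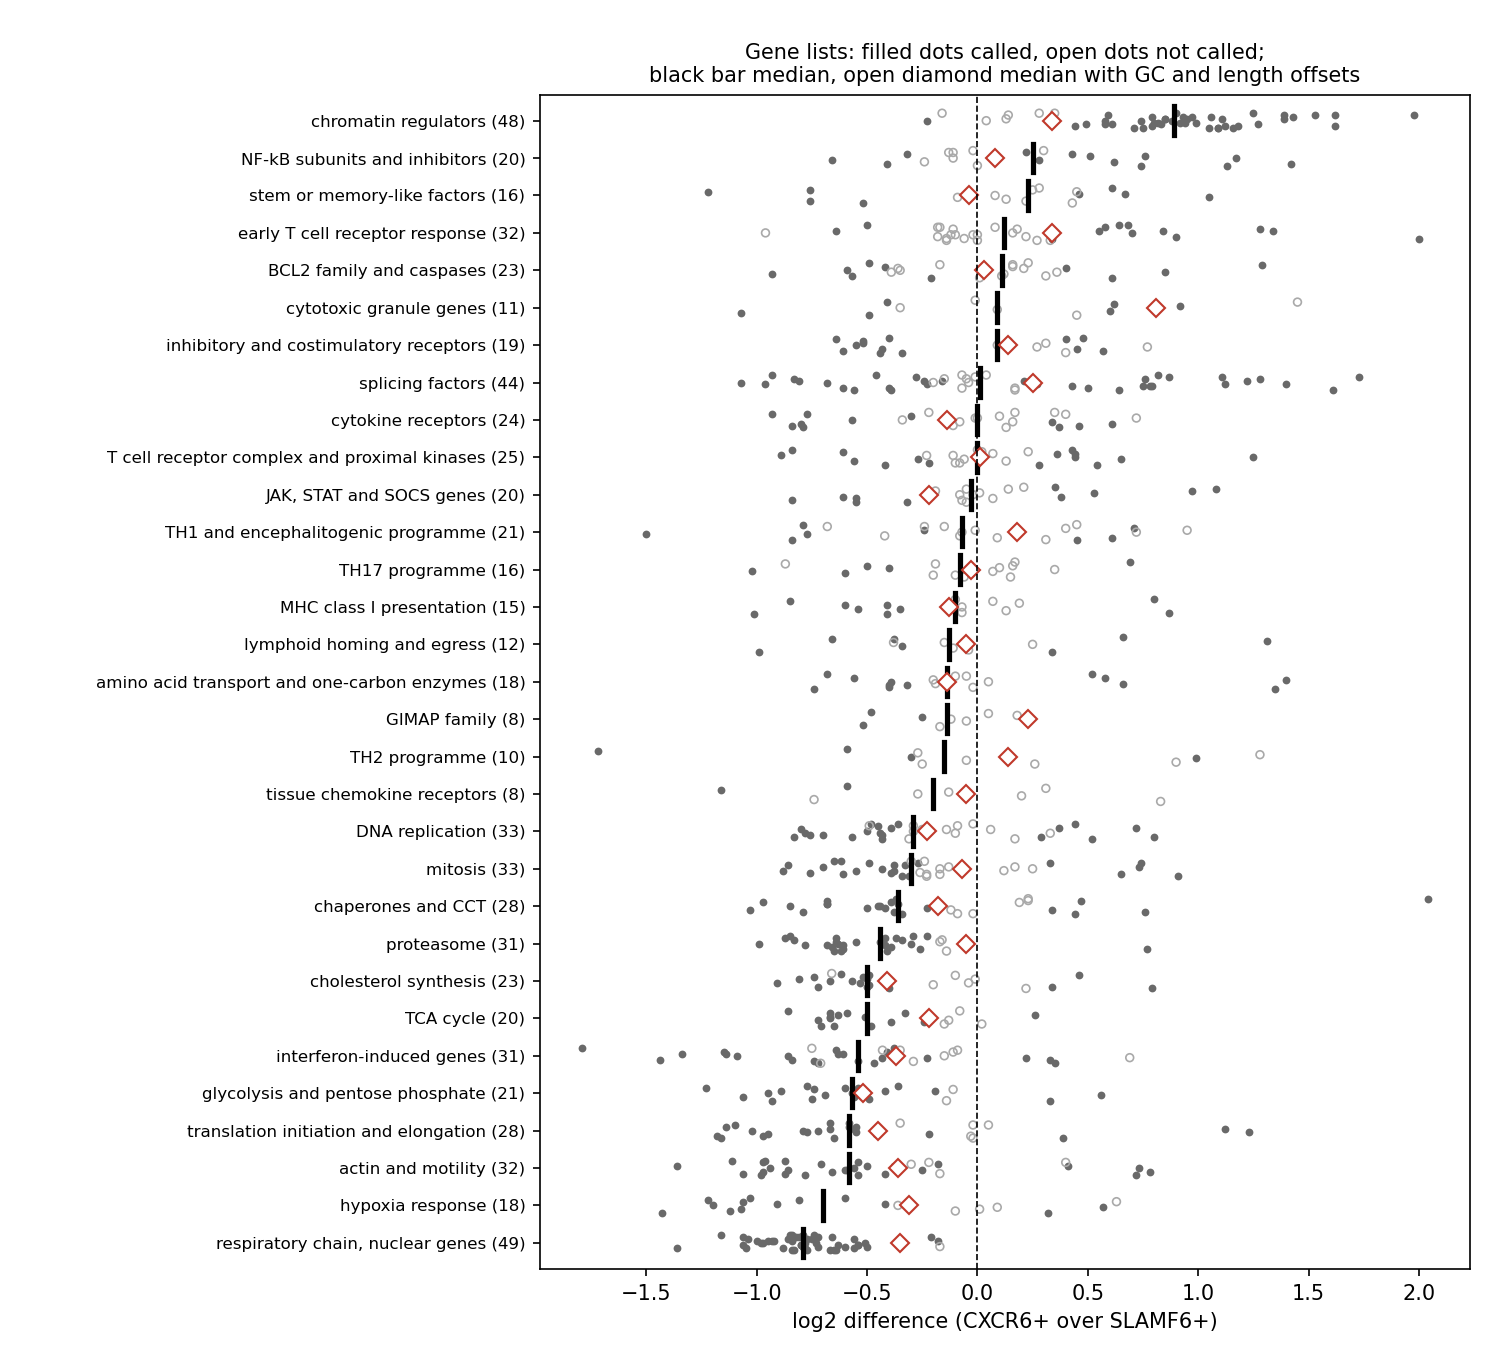
Log2 difference (CXCR6+ over SLAMF6+) of each tested gene in 31 gene lists, ordered by list median, with the median of the fit without offsets (black bar) and with GC and length offsets (open diamond). Dots past the adjusted p threshold are filled, the dashed line is the median of all protein-coding genes (0.00), and the list medians run from -0.79 for the respiratory chain to 0.89 for chromatin regulators.

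Lipid and amino acid genes held members on both sides. Of 23 cholesterol synthesis genes 3 were higher and 14 were lower, with a median of -0.50. Fdps, which makes the farnesyl unit, was at 221, 263, 276, 301 and 282 CPM in CXCR6+ and at 423, 408, 451, 476 and 479.9 CPM in SLAMF6+ replicates (-0.74, SE 0.08, adjusted p 1.99e-05). The pathway's transcription factor, Srebf2, was higher (0.34, SE 0.08), a call that ended with the offsets at -0.19 (adjusted p 0.0788). Amino acid transport and one-carbon genes gave 5 higher and 7 lower of 18, beside 27.6% and 27.4% of all genes, and with offsets 3 higher and 7 lower. The glutamine transporter Slc1a5 was at 279, 271, 259, 327 and 275 CPM in CXCR6+ and at 106, 98.3, 124, 117 and 90.1 CPM in SLAMF6+ replicates (1.40, SE 0.10, adjusted p 4.89e-07), and Slc7a5, the leucine transporter, was higher by 1.35. The other higher members were also transporters, Slc7a1 (0.66), Slc38a2 (0.58) and Slc38a1 (0.52), and the 7 lower members were enzymes: Psph, Mthfd1l, Asns, Mthfd2, Umps, Phgdh and Psat1. With offsets only 3 members of the list were higher, so not all 5 transporters kept their calls.

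The machinery of protein synthesis and turnover was mostly lower in CXCR6+ cells. Of 28 translation factors 3 were higher and 20 were lower (median -0.58). Eef1a1, which brings aminoacyl-tRNA to the ribosome, was at 4260.3, 4049, 4737, 4318 and 4655 CPM in CXCR6+ and at 9645, 9765, 9649, 9949 and 10332 CPM in SLAMF6+ replicates (-1.16, SE 0.06, adjusted p 1.64e-07). Eif4g1, the scaffold of the cap-binding complex, was higher (1.23, SE 0.09, adjusted p 7.96e-07). Of 31 proteasome genes 1 was higher and 26 were lower, with a median of -0.44 that was -0.05 with offsets, when 6 were higher and 9 lower. Psma2 kept its call (-0.87, and -0.76 with offsets, adjusted p 1.14e-06). Chaperone genes gave 5 higher and 17 lower of 28 (median -0.36), and with offsets 8 higher and 15 lower (median -0.18). The higher ones without offsets were Hspa1b, Hspa1a, Calr, Pdia6 and Hsp90aa1. Of all genes in the fifth with the highest level, 17.5% were higher and 60.4% lower, and with offsets 22.3% and 45.2%.

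Actin and motility genes had a median of -0.58, with 4 higher and 24 lower of 32, and with offsets a median of -0.36 with 2 higher and 22 lower. Rac2, the leukocyte GTPase that directs actin at the leading edge (chr15:78559167-78572783), was at 422, 416, 369, 474 and 399 CPM in CXCR6+ and at 1167, 929, 1103, 1062 and 1090.2 CPM in SLAMF6+ replicates. Its difference was -1.36 (SE 0.08, adjusted p 2.34e-07), and it was -1.33 with offsets. Actb (-0.54, SE 0.07), Pfn1 (-0.59, SE 0.07) and Tmsb10 (-1.11, SE 0.09) were lower as well. Dock2, an activator of Rac in lymphocytes, was higher by 0.78 (SE 0.08, adjusted p 8.98e-06).

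Cell division genes held members on both sides, with more of them lower in CXCR6+ cells. Of 33 DNA replication genes 6 were higher and 14 were lower (median -0.29), and of 33 mitosis genes 5 were higher and 17 were lower (median -0.30). With offsets the replication median was -0.23, with 7 higher and 12 lower, and the mitosis median was -0.07, with 5 higher and 9 lower. Mcm5, a subunit of the replicative helicase, was lower (-0.44, SE 0.08, adjusted p 0.00054), and so was Rrm2, which makes deoxynucleotides (-0.57, SE 0.12, adjusted p 0.00153). Mki67, the gene of the proliferation antigen Ki-67 and a long transcript, was higher (0.91, SE 0.12, adjusted p 6.89e-05) and kept its call with offsets at 0.34 (adjusted p 0.0285).

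Interferon-induced genes were lower in CXCR6+ cells at 19 of 31 members tested and higher at 3, with a median of -0.54 that was -0.37 with offsets. Gbp2, a GTPase induced by interferon-gamma, was at 93.9, 77.6, 53.7, 72.8 and 90.2 CPM in CXCR6+ and at 206, 222, 186, 195 and 243 CPM in SLAMF6+ replicates (-1.44, SE 0.14, adjusted p 4.95e-06). Irf1, the factor that induces many of these genes, was lower by less (-0.38, SE 0.07, adjusted p 0.000762). MHC class I presentation genes gave 2 higher and 7 lower of 15, beside 27.6% and 27.4% of all genes. With offsets 3 were higher and 7 lower.

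Chromatin regulators had the largest share of higher members among the 31 lists. Of 48 tested, 41 were higher and 1 was lower in CXCR6+ cells (Hdac1, -0.23, which was 0.03 with offsets), 38 lay above without overlap, and the median was 0.89. Hdac7, a class IIa histone deacetylase of the T lineage, was at 213, 207, 229.8, 244 and 269 CPM in CXCR6+ and at 76.1, 73.7, 79.1, 74.6 and 74.6 CPM in SLAMF6+ replicates (1.62, SE 0.08, adjusted p 1.64e-07). Kmt2b, a histone H3 lysine methyltransferase, was at 40.4, 30.8, 35.5, 24 and 32.2 CPM against 8.25, 9.73, 9.83, 6.16 and 7.38 CPM (1.98, SE 0.17, adjusted p 1.88e-06). Crebbp, an acetyltransferase, was higher by 1.62 (SE 0.13, adjusted p 1.28e-06), and Ezh2, the catalytic subunit of Polycomb complex PRC2, by 0.80 (SE 0.09, adjusted p 1.23e-05). Most of these transcripts are long. Of all genes in the fifth with the longest transcripts, 50.2% were higher and 9.52% lower, and with offsets 23.9% and 22.6%. With the length offsets the median was 0.34, with 25 higher and 2 lower; Hdac7 (0.95), Kmt2b (1.06), Crebbp (0.96) and Ezh2 (0.98) kept their calls, and Kmt2d turned from 0.92 to -0.23 (adjusted p 0.0177).

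Splicing factors gave 18 higher and 15 lower of 44 (median 0.01), and with offsets 22 higher and 10 lower (median 0.25). Luc7l2, Srsf1, Srrm2 and Son, regulators that act on splice site choice, were higher by 1.73, 1.61, 1.40 and 1.22. The 8 core snRNP protein genes of the list, singled out after their values were seen (Snrpa, Snrpb, Snrpd1, Snrpd2, Snrpd3, Snrpe, Snrpf and Snrpg), were all lower, from -0.24 for Snrpd1 to -1.07 for Snrpg. They are short transcripts, and with offsets Snrpa (0.06), Snrpb (0.15), Snrpf (0.05) and Snrpd1 (0.66, adjusted p 3.13e-05) turned sign. Ccnl2, a cyclin of splicing speckles, and Ogt, which attaches sugar to nuclear proteins, were higher by 1.44 (SE 0.11) and 1.06 (SE 0.12) at levels above 200 CPM in CXCR6+ cells.

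Across all genes, the largest rise among those above 20 CPM was that of Insl3. It measured 54.4, 70.8, 113, 51.8 and 119.6 CPM in CXCR6+ and at 3.75, 4.93, 4.96, 4.07 and 5.08 CPM in SLAMF6+ replicates, 17.9-fold higher (4.17, SE 0.27, adjusted p 3.79e-07). Insl3 encodes a hormone of the relaxin family known from the testis, and its gene (chr8:71689214-71690575) shares 64.8% of its exon bases with the 3′ end of Jak3 on the same strand. Jak3 was at 0.01 (SE 0.06, adjusted p 0.945; -0.48 with offsets, adjusted p 8.03e-05). How reads were split between the overlapping genes bears on the Insl3 value, which is reported as uncertain. The following rises were Thbs3 (2.06, SE 0.28), Gabbr1 (2.00, SE 0.22), Dusp2 and Tmc4 (1.99, SE 0.21). The largest falls were Fam229b (-2.01, SE 0.21), Dpm1 (-1.82, SE 0.18), which makes the mannose donor for glycosylation and shares 12% of its exon bases with a gene model, Plac8 (-1.76, SE 0.16) and Il4. Fth1, the ferritin heavy chain that stores iron, was at 384, 332, 394, 335 and 397 CPM in CXCR6+ and at 876, 979, 851, 939.5 and 994 CPM in SLAMF6+ replicates (-1.33, SE 0.07, adjusted p 2e-07). Mt1, the metal-binding metallothionein, was lower by 1.46 on the log2 scale (SE 0.14, adjusted p 4.07e-06). Of the genes named here, 9 share at least 20% of their exon bases with another annotated gene, and their values carry the same uncertainty.

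**Figure D4:**
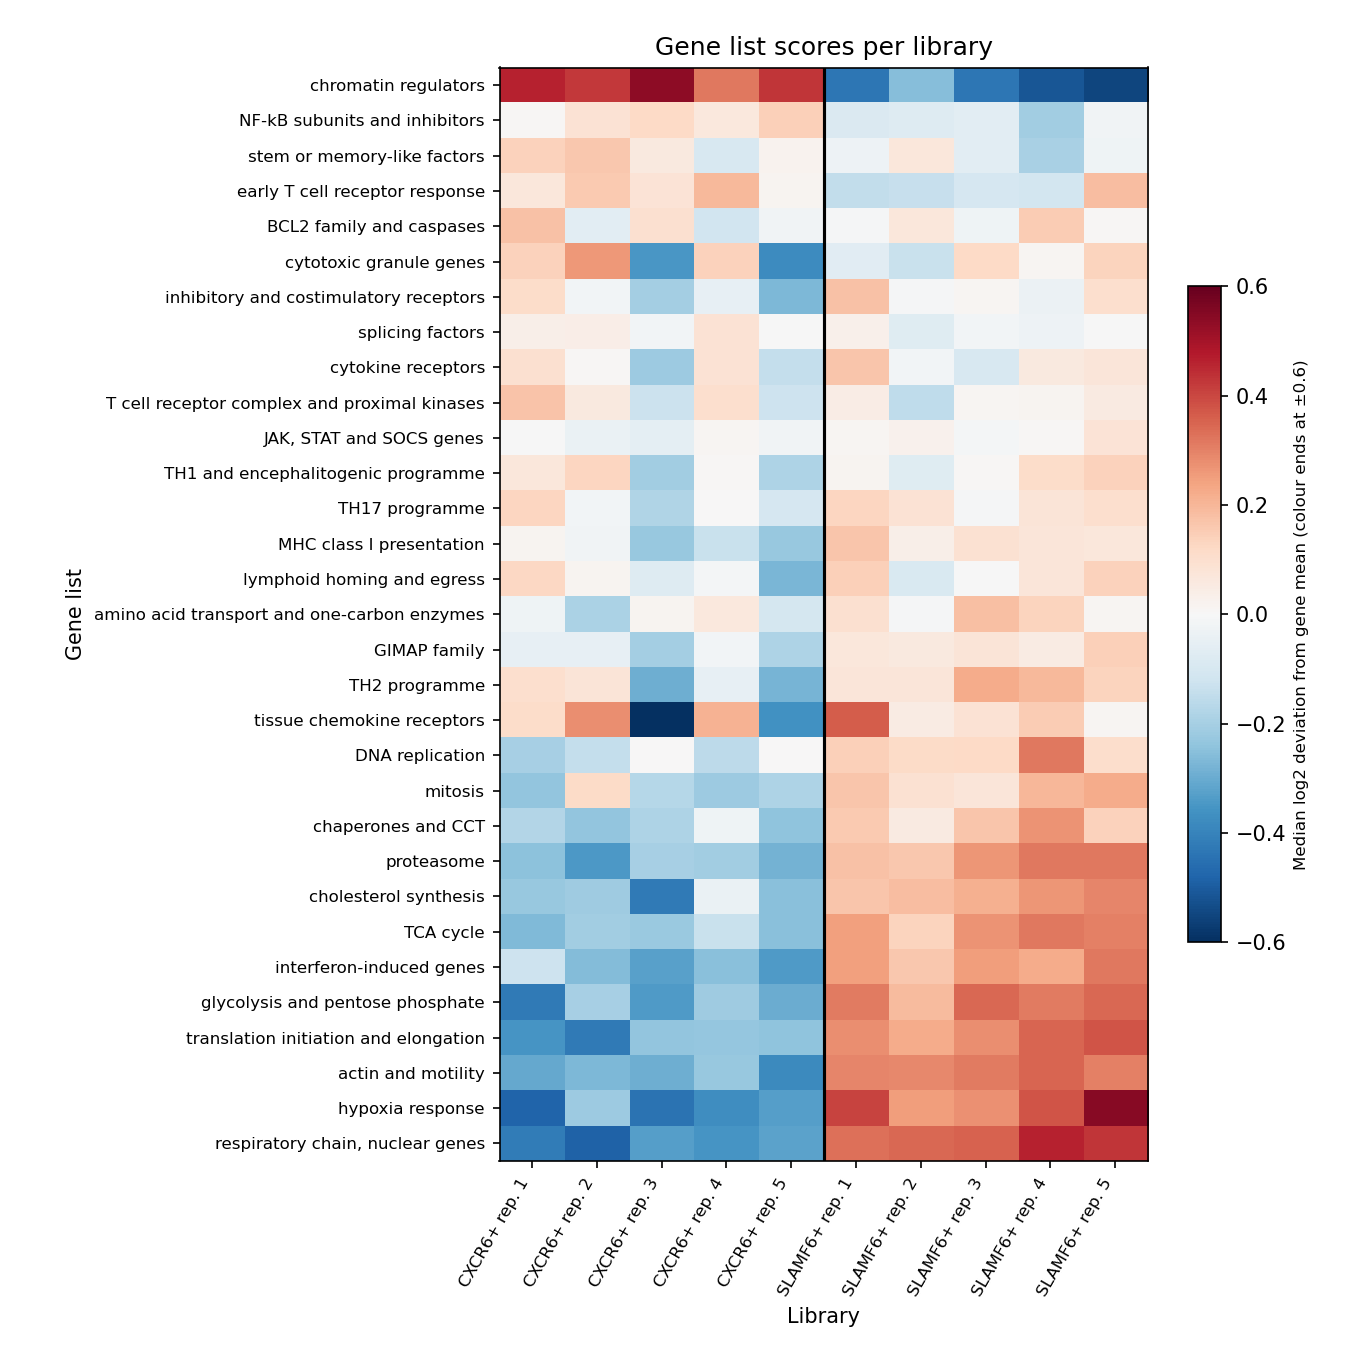
Score of each gene list in each library: the median over tested members of the log2 CPM deviation from the gene's mean over the 10 libraries, CXCR6+ replicates 1 to 5 on the left. The respiratory chain scores are -0.48 to -0.32 in CXCR6+ and 0.33 to 0.46 in SLAMF6+ libraries, chromatin regulator scores are 0.32 to 0.54 and -0.55 to -0.25, and the TH17 programme scores overlap.

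Per-library scores of the lists, the median deviation of the members from their means over the 10 libraries, showed how even these shifts were among replicates. For the respiratory chain, scores lay between -0.48 and -0.32 in CXCR6+ and between 0.33 and 0.46 in SLAMF6+ libraries, and for chromatin regulators between 0.32 and 0.54 and between -0.55 and -0.25. The TH17 programme overlapped, with -0.18 to 0.13 and -0.01 to 0.13. CXCR6+ replicate 3 had the lowest TH17 and tissue chemokine receptor scores of the 10 libraries. Besides Cxcr6, it had the lowest CXCR6+ value of Ccr8 (14.8 CPM, against 24 to 64.8 CPM in the other 4), of Fasl (0.25 against 5.29 to 8.54 CPM) and of Ccl5 (23.4 against 32.6 to 76.4 CPM). It was the lowest of its subset at 24.4% of the genes tested, and SLAMF6+ replicate 2 was at 27.6%. Leaving out CXCR6+ replicate 3 gave 5668 called genes and leaving out SLAMF6+ replicate 2 gave 5676. Within the 5 libraries with mt-Ts1 at 0, of which 1 is CXCR6+, 3210 genes were called, and within the 5 with mt-Ts1 counts, of which 1 is SLAMF6+, 2451 were called.

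With 1 library per subset the DKO pair has no test of its own, and its values are descriptions of those 2 libraries. Several marker lists of other cells stood higher in them than in WT. The 8 red cell markers summed to 143901 CPM in the DKO SLAMF6+ library, against 6.59 CPM in the DKO CXCR6+ library and 2.27 to 4.19 CPM in WT. Neutrophil markers summed to 1049 CPM in the DKO CXCR6+ and 99.5 CPM in the DKO SLAMF6+ library. Dendritic cell and MHC class II markers summed to 340 and 1688 CPM, against 228 to 272 CPM in WT CXCR6+ and 408 to 485 CPM in WT SLAMF6+ libraries. Astrocyte markers stood lower, at 0.462 and 2.61 CPM over the 4 that passed the filter. All 9 summed to 43.8 to 55.4 CPM in WT CXCR6+ and 75 to 87.9 CPM in WT SLAMF6+ libraries. The part of these cells in the DKO values was not tested. The genes at least 2-fold higher in WT CXCR6+ cells had a WT median of 1.26 and a DKO pair median of 0.09, and the genes at least 2-fold lower had medians of -1.15 and -0.08. Since these genes were chosen for their WT difference, a smaller value in another pair follows from the choice and is no result. A test of the difference between the WT and the DKO contrast, which assumes that each DKO library varies like the WT libraries, called 1825 of 12656 genes (14.4%), with a more positive difference in WT at 660 (5.21%) and a more negative one at 1165 (9.21%). Insl3 was at -0.83 in the DKO pair, Dusp2 at -0.03, Uqcrh at -0.14, Gapdh at -0.04 and Hdac7 at 0.76. The respiratory chain median was 0.01 and the chromatin regulator median 0.08 in the DKO pair. Some members were as far apart in the DKO pair as in WT: Ccr7 was at -1.25, Slamf6 at -1.77, Bnip3 at -2.06 and Cxcr6 at 1.24. Il17a was at 0 and 0.434 CPM and Il17f at 0.116 and 0.145 CPM in the CXCR6+ and the SLAMF6+ library of the DKO pair.

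Markers of other cells were at or near 0 for several cell types, and some moved with the subset. Of the defining markers, S100a8, S100a9 and Retnlg of neutrophils, Cd163 of macrophages, Clec9a of dendritic cells, Klra8 of natural killer cells and Cdh5 of endothelium were at 0 in all 10 libraries. Lyz2, C1qa, Csf1r, Mog and Gfap had means below 1 CPM in both subsets. The summed level of the 13 microglia markers was 24.2 to 49.6 CPM in CXCR6+ and 61.7 to 80.9 CPM in SLAMF6+ libraries, with 2 tested and both lower, among them Tmem119 (-2.51, SE 0.42). The 14 dendritic cell and MHC class II markers summed to 228 to 272 and 408 to 485 CPM, with 5 of 8 tested lower, among them Cd74 (-1.52, SE 0.13) and H2-Ab1, which fell by 1.00 (SE 0.15). The 11 oligodendrocyte markers summed to 71.8 to 80.9 and 124 to 145 CPM, most of it Cnp and Mbp, and the 9 astrocyte markers to 43.8 to 55.4 and 75 to 87.9 CPM. For the other 8 marker lists the sums of the 2 subsets overlapped, as for monocyte and macrophage markers (20.1 to 28.1 and 13.2 to 20.4 CPM). The part of these cells in the differences above was not tested.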

How the data were processed

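The deposited table holds expected counts per gene symbol, estimated by the authors with RSEM (1.3.3) after alignment with STAR (2.7.7a) to mm10, per the submitters' processing notes. Its values are whole numbers. Which annotation and read filters were used, and how reads shared by genes were handled, is not given in the sources used here. Gene types, lengths, GC content and coordinates came from GENCODE M21, in which 41368 of the 47359 symbols (87.3%) matched 1 gene; a further 1428 took their type from RefSeq.

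The 10 WT libraries were fitted in edgeR (4.0.16, R 4.3.3) with TMM scaling, filterByExpr and the quasi-likelihood test, with the subset as the only term. P-values were adjusted by Benjamini-Hochberg over 13508 genes, and the threshold was 0.05. Log2 differences of the WT fit and of the WT minus DKO test used edgeR's default prior count. Those of the DKO pair used a prior count of 2, so WT and DKO pair values are shrunk to different degrees. The fit with offsets took out a smooth trend of each library with GC and with length, estimated from 7530 genes; both properties were known for 94.4% of those tested. DESeq2 (1.42.0), limma-voom (limma 3.58.1), other scalings, filters, thinning, a replicate block and left-out libraries were alternatives. The scripts were tested on simulated data. Counts come from amplified reads without molecular identifiers, and no interval is given for single libraries.

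Named genes were Cxcr6, Slamf6, Il17a and Il17f, the 15 largest differences each way among called genes of at least 20 CPM without overlap, the 8 largest each way at 200 CPM or more, the 5 smallest p each way, and 4 genes per list by p. Receptor segments, histone cluster genes and unnamed models were left out, and other list members were named whatever their p, and a few that qualified are not reported here. The 31 programme lists, the T cell identity list, the 12 marker lists and the genes were chosen with earlier results of these data known.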

Additional observations from a re-analysis of the deposited data

Results flagged for a closer look

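Among 70 groups of 5 libraries examined for a library far from the others, 2 held one, and chance flags about 1 in 20 such groups. Il17f in SLAMF6+ replicate 5 was at 139.8 CPM, above the other 4 SLAMF6+ libraries. The total of SLAMF6+ replicate 2 was 8134987 counts, below the other 4 SLAMF6+ libraries.

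For 56 of 144 named genes the subset difference in WT was called different from that in the DKO pair, by a test in edgeR that assumes the single DKO libraries vary like the WT ones. Over the 10552 genes tested in WT the share was 16.9%, and the named genes were chosen for their WT differences, which this test contains, so their share is no result. Red cell markers summed to 143901 CPM in the DKO SLAMF6+ library, and their part in these values was not tested. Values here are the WT log2 difference minus the DKO log2 difference, so a positive value means CXCR6+ stood higher relative to SLAMF6+ in WT. Of the cytokine and receptor-signal genes, Tnf was at 3.06, Egr2 at 2.28, Dusp2 at 1.89 and Jak2 at 1.81. Tnf was at 16.6 CPM in the DKO CXCR6+ and 93.1 CPM in the DKO SLAMF6+ library, the order opposite to WT. Il23r was at -3.52, with 1.85 and 0.145 CPM in the 2 DKO libraries against a WT mean above 30 CPM in each subset. Receptors and signal carriers below 0 were Ifngr1 (-1.34), Il2rb (-1.17), Il12rb2 (-1.05), Cd3g (-0.98) and Cd3e (-0.63), and the Socs2 difference fell by 1.00 from the DKO pair to WT. The surface receptors Cd200 (2.10), Btla (1.94) and Cd27 (1.14) were above 0, as were Foxo1 (1.22), Bach2 (1.27) and the survival gene Bcl2 (0.81), while Ets1 was below (-0.91).

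Chromatin and splicing regulators were above 0 at Kmt2b (1.94), Crebbp (1.57), Ezh2 (0.99), Hdac7 (0.73), Luc7l2 (1.53), Srsf1 (1.16), Srrm2 (1.14) and Son (0.81), and the snRNP genes Snrpd3 (-1.04) and Snrpe (-0.93) were below. Metabolic genes below 0 were Tpi1 (-1.58), Gapdh (-1.32), Hk2 (-1.15), Pgk1 (-0.87), Ldha (-0.76), Uqcrh (-1.15), Sdha (-0.75), Bnip3l (-0.82), Asns (-1.54) and Rrm2 (-1.82). Of protein synthesis and turnover genes, Eef1a1 (-1.08) and Psma2 (-0.78) were below 0 and Eif4g1 (0.92) and Calr (0.67) above. Rac2 (-1.31), Tmsb10 (-1.08), Actb (-0.66), Fth1 (-1.22), Gbp2 (-1.33), Srgn (-1.16) and Plac8 (-2.60) were below 0. Among the genes with the largest WT differences, Insl3 (4.89), Tmc4 (3.75) and Gabbr1 (1.99) were above 0. Fam229b was at -8.04, a fitted value that depends on the prior count because the DKO SLAMF6+ library held 0 counts of it. Of genes used as markers of other cells, H2-Ab1 (1.41) was above 0 and Mbp (-0.93) and Cnp (-1.06) were below.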

How the results depend on the processing

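The number of protein-coding genes called, 5808, stayed within 1.5 times in the fits run other than the test against a fold of 1.5, which called 1842, and the mt-Ts1 contrasts given below. Leaving out 1 library, or 1 replicate number from both subsets, gave 5134 to 5723. With the replicate number as a replicate block the count was 5505 (2697 higher, 2808 lower) and the block reversed no named gene and ended the calls of 6. The labels do not say that a number is shared material: correlations of same-numbered libraries' deviations were 0.08, -0.02, -0.07, 0.07 and 0.00, and not every library correlated best with its own number. A further 2 contrasts chosen after seeing the data moved the count: within libraries with mt-Ts1 at 0 it was 3210 (1564 higher, 1646 lower), and within those with mt-Ts1 counts 2451 (1120 higher, 1331 lower). Each has 5 libraries and 1 subset with a single library, assumed to vary like the others. With no filter 1911 genes were higher, and with at least 10 CPM in 5 libraries 862 were called at least 2-fold. The interaction count was 1825, and 1494 with limma-voom.

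Medians at least 0.1 from 0 changed sign for these lists: tissue chemokine receptors (0.01), lymphoid homing (0.02), GIMAP (0.00) and amino acid genes (0.00) with at least 10 CPM in 5 libraries; stem or memory-like (-0.04), TH2 (0.14), GIMAP (0.23) and T cell identity (0.06) with offsets; early T cell receptor (-0.01) and BCL2 genes (-0.02) with all 12 libraries; stem or memory-like (-0.07) and BCL2 genes (-0.07) within libraries with mt-Ts1 counts; and BCL2 genes without CXCR6+ replicate 1 (-0.02) or replicate 1 of both subsets (-0.00), in a range of -0.02 to 0.12 over left-out libraries. Of medians nearer to 0, those of inhibitory receptors (0.09) changed sign in 8 of 29 alternatives, with a range of -0.23 to 0.14. Granule genes (0.09, range -0.07 to 0.81), TH1 genes (-0.07, range -0.20 to 0.18) and splicing factors (0.01, range -0.12 to 0.25) did so in 7 each, TH17 genes (-0.08, range -0.21 to 0.03) in 2 and JAK, STAT and SOCS genes (-0.03, range -0.22 to 0.09) in 1. No direction is read from these medians. With offsets 11 named genes changed sign: Gimap4 (0.25), Gimap7 (0.21), Hdac1 (0.03), Jak3 (-0.48), Kmt2d (-0.23), Snrpa (0.06), Snrpb (0.15), Snrpd1 (0.66), Snrpf (0.05), Srebf2 (-0.19) and Tigit (0.13). The cause of these changes was not tested beyond the alternative itself. Totals of 6818658 to 11635037 counts limit genes of a few CPM, and thinning to the smallest total called 5478.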

Other observations

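Counts for several T cell gene groups outside the accounts above follow. Of all protein-coding genes tested, 27.6% were higher and 27.4% lower in CXCR6+ cells. Counts near those shares are not read as a result about a list. Of 8 tissue chemokine receptors tested, 0 were higher and 2 were lower in CXCR6+ cells, and with offsets 2 were higher and 2 lower. Ccr4 was among the lower ones and fell by 0.59 on the log2 scale. Ccr2 was not called (0.20, SE 0.18). Of 24 cytokine receptor genes 4 were higher and 7 lower, and with offsets 6 were higher and 9 lower; the interferon-gamma receptor chains Ifngr1 (-0.57) and Ifngr2 (-0.80) were both among the lower ones. JAK, STAT and SOCS genes gave 5 higher and 5 lower of 20, and with offsets 3 higher and 11 lower (median -0.03 without and -0.22 with them), with the feedback inhibitor Socs1 higher (0.53) and Socs2 lower (-0.61). The GIMAP family, GTPases of lymphocyte survival, had 3 of 8 members lower and 0 higher, and with length offsets 5 higher and 1 lower.

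Genes of cytotoxic granules gave 3 higher (Prf1 0.92, Ctsw 0.62 and Serpinb9 0.60) and 3 lower (Srgn -1.07, Ctsc -0.49 and Ctsd -0.41) of 11 tested, with a median of 0.09. For these and the following counts, the shares over all genes were 27.6% higher and 27.4% lower. With offsets 6 granule genes were higher and 3 lower, with a median of 0.81. Gzmb was at 937, 868, 471, 795 and 481 CPM in CXCR6+ and at 564, 396, 613, 532 and 489 CPM in SLAMF6+ replicates and was not called (0.45, SE 0.20, adjusted p 0.0712). Among 23 BCL2 family and caspase genes, 4 were higher (Bbc3 1.29, Mcl1 0.85, Bcl2 0.61 and Cflar 0.40) and 6 were lower, among them Bad (-0.93), and with offsets 7 were higher and 4 lower. Mcl1 and Bcl2 protect cells from death and Bbc3 promotes it, so the higher members include both kinds.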
